A study of Sus scrofa with 16 samples.

Results

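Heart and lung of newborn pigs were compared through the accessible chromatin regions called in each tissue by ATAC-seq, in which an enzyme cuts accessible DNA and tags it for sequencing. Every peak on chromosomes 1 to 18 was placed in 1 of 3 sets by whether it shared at least 1 bp with a peak of the other tissue, and no other list entered this step. Merging of overlapping peaks gave 107684 regions, of which 31815 were called in heart only, 39121 in lung only and 36748 in both. All 8 peak lists of the series held 281154 regions on the same chromosomes.

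The study profiled several newborn pig tissues and postnatal liver in 16 libraries, and 4 of these, 2 hearts and 2 lungs, are described here. Both groups came from female domestic crossbred pigs, labelled day 0 and described in the study's methods as full-sib Berkshire and Tibetan hybrids in their first day of life. No animal was treated and no allele was altered, and whole tissue was used without sorting of cells. Per the study's methods, all newborn organs were taken from the same 2 animals, so the heart and lung libraries share their donors. The labels number the replicates but do not say which animal each number stands for.

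Heart muscle cells, or cardiomyocytes, contract through sarcomeres built of myosins, troponins and titin, under regulators such as NKX2-5, GATA4, TBX5 and the MEF2 family. The lung epithelium is laid down under NKX2-1 and FOXA factors, and its alveolar cells make surfactant or form the thin gas exchange surface. Both organs share endothelial cells, which line vessels and depend on VEGF receptors such as KDR and on ETS family factors, and mesenchymal cells, which include fibroblasts, smooth muscle and pericytes. TBX5 acts in both heart muscle and lung mesenchyme. In whole tissue, more cells of a type and more open chromatin per cell cannot be told apart, so every result below is a property of the tissue.

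Sequences of 151 bp around the summits of 13 peaks are shown so that the heart-only, lung-only and shared regions can be read beside their motif counts. All are RefSeq Sscrofa11.1 sequence on the plus strand, none contains an annotated exon base, and capitals mark the match named for each group. They were chosen after values were seen, from among the stronger peaks of each kind that hold a match, so the presence of the match in them is no finding. The first 3 are heart-only peaks with a MEF2 match. They lie in an intron of VIPR2 (chr18:436859-437009), an annotated alternative promoter of ASB15 (chr18:23861434-23861584) and an intron of CDH13 (chr6:5813025-5813175).
VIPR2: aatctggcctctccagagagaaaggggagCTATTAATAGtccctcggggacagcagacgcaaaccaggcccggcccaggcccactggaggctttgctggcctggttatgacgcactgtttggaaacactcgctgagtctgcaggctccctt
ASB15: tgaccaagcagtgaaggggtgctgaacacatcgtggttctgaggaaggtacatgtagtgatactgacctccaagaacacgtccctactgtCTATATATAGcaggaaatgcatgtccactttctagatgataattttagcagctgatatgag
CDH13: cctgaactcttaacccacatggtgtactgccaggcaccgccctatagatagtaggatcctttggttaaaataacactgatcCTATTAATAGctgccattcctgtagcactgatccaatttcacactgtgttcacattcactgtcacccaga
Their −log10 p in heart replicates 1 and 2 was 59.9 and 73.5 at VIPR2, 52.8 and 45.9 at ASB15, and 45.0 and 48.4 at CDH13, and all 3 were also called in skeletal muscle.

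The strongest heart-only peaks with a GATA match at cardiac genes lay in introns of MEF2A (chr1:138465974-138466124) and MYOCD (chr12:56997362-56997512), which encode a MEF2 factor and a coactivator of muscle genes.
MEF2A: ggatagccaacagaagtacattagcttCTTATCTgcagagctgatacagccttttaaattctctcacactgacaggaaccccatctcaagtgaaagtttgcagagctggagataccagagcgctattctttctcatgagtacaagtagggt
MYOCD: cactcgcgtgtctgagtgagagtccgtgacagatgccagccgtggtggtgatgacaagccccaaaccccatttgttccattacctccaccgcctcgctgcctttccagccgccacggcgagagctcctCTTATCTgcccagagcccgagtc
Heart replicates 1 and 2 gave a −log10 p of 39.2 and 42.1 at MEF2A and of 35.9 and 39.6 at MYOCD, and neither region was called in skeletal muscle.

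For the lung, an NKX2 match is shown in the lung-only peak at the start of NKX2-1 itself (chr7:63487028-63487178), in an intron of GPRC5A (chr5:59585549-59585699) and in an alternative promoter of FOXP2 (chr18:31886784-31886934). A FOX match is shown in introns of MYO5C (chr1:119418793-119418943) and LTBP2 (chr7:97794051-97794201).
NKX2-1: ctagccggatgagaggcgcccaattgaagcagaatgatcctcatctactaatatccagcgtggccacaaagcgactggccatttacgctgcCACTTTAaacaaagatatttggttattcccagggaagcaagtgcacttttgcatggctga
GPRC5A: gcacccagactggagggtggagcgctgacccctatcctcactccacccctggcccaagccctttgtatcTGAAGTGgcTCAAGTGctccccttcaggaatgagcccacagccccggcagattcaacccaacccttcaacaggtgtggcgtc
FOXP2: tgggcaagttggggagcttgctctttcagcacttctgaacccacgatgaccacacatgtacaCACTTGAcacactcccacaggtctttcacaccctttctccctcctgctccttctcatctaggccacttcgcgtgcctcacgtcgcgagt
MYO5C: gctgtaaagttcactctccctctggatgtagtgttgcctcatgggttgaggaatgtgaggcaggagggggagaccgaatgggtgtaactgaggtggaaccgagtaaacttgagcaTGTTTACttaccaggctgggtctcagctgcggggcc
LTBP2: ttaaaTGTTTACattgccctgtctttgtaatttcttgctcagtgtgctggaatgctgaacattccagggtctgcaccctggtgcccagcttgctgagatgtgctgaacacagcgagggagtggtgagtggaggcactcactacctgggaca
The −log10 p of lung replicates 1 and 2 was 10.7 and 57.3 at NKX2-1, 22.6 and 56.3 at GPRC5A, 18.9 and 75.03 at FOXP2, 60.5 and 195 at MYO5C, and 53.1 and 197 at LTBP2. Replicate 2 had the higher value at each of these peaks.

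For the cells that both organs share, the sequences are a shared peak in an intron of PECAM1, an adhesion molecule of endothelium, with an ETS match (chr12:14670156-14670306), and the strongest heart-only peaks in introns of KDR (chr8:41823837-41823987) and TBX5 (chr14:37799956-37800106) that hold a match to MEF2, NKX2, GATA, TEAD, FOX, ETS, HAND or TBX. KDR has a MEF2 match and TBX5 a HAND match.
PECAM1: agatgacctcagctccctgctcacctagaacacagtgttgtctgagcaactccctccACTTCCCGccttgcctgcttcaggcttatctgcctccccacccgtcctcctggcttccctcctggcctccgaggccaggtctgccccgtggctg
KDR: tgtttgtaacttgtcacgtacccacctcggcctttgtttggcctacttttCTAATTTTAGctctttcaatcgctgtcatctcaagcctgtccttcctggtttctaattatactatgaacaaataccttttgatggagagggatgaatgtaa
TBX5: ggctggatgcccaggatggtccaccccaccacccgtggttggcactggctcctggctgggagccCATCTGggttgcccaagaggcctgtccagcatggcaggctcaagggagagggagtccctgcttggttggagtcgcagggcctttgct
The KDR peak was weak, with a −log10 p of 6.09 and 5.17 in heart replicates 1 and 2, against 12.7 and 23.9 at TBX5.

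The heart list held 70391 peaks, of which 45.2% (95% Wilson interval 44.8% to 45.6%) met no lung peak. The lung list held 77408 peaks, of which 50.5% (50.2% to 50.9%) met no heart peak. These intervals, like all others given here, cover counting error only, since the replicates of a tissue had been pooled into 1 list and neither replicate error nor a test between tissues could be had. Peaks of a single tissue were shorter, with a median of 390 bp for heart-only and 411 bp for lung-only peaks, against 631 bp and 695 bp for the shared peaks of the heart and lung lists. They also met the reproducibility limit less often. The irreproducible discovery rate (IDR) is low for peaks that both replicates rank alike and near the top, so weak peaks miss the limit even where replicates are alike. It was 0.05 or lower in 9.09% of heart-only and 10.2% of lung-only peaks, against 28.6% and 31.1% of shared peaks.

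The lung replicates were unequal. The −log10 p had a median of 6.12 in lung replicate 1 and 22.7 in lung replicate 2, whereas the heart replicates had medians of 9.32 and 9.95. What makes the lung replicates unequal was not tested, and −log10 p is set side by side within a list only. Read counts are not part of the lists. The study's supplement reports more reads kept after filtering for either lung library than for either heart library. The numbers for both lung libraries were close to each other. The depth of a peak is therefore unknown, and a peak missing from a list was not called, which is not a measured absence. The sets changed little when the intervals of lung replicate 2 replaced the merged lung intervals, with 31878 heart-only and 39217 lung-only peaks. Every peak of the merged list was kept in this step. It therefore moved borders only and does not show what the sets would be without lung replicate 1. Few peaks lay near the 1 bp limit. Of the shared heart peaks, 172 (0.446%) met their lung peak by under 50 bp and the median overlap was 495 bp, while 151 heart-only and 221 lung-only peaks lay within 50 bp of a peak of the other tissue. The median distance to the nearest peak of the other tissue was 7843 bp for heart-only and 8010 bp for lung-only peaks.

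Shared peaks and peaks of a single tissue lay in different parts of genes. Promoters, taken from 2.2 kb upstream to 500 bp downstream of the start sites of protein-coding genes (PCGs), held 34.9% of the shared peaks of the heart list and 34.3% of those of the lung list, but 4.86% (4.63% to 5.10%) of heart-only and 6.95% (6.70% to 7.21%) of lung-only peaks. Introns held 49.0% of heart-only and 45.7% of lung-only peaks against 28.3% of the shared heart peaks, and intergenic sequence held 38.3%, 39.1% and 28.8%. The order of heart-only and lung-only peaks turned when both lists were restricted to an IDR of 0.05 or lower, with promoter shares of 27.3% and 26.2%. A peak then also counted as limited to a tissue when its partner missed the limit. What turned the order was not tested. Heart-only peaks made up between 41.4% and 49.6% of the peaks of a single tissue on each of the 18 chromosomes, so neither set was concentrated on a few of them.

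**Figure D1:**
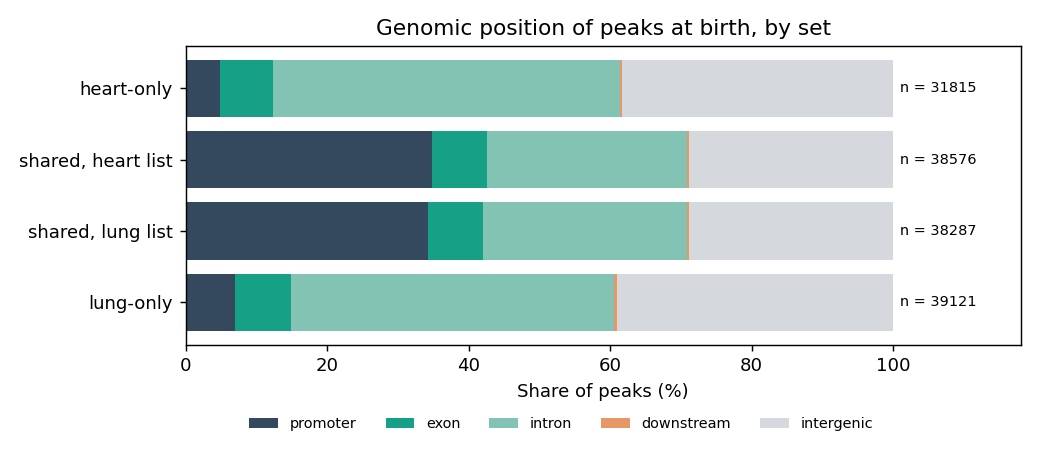
Share of peaks (x axis, percent) by genomic position for heart-only, lung-only and shared peaks at birth, with the number of peaks at the end of each bar. Shared peaks overlap promoters in 34.9% (heart list) and 34.3% (lung list) of cases, against 4.86% of heart-only and 6.95% of lung-only peaks.

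Heart-only regions were called in skeletal muscle more often than lung-only regions were. The newborn muscle list, which was not used to define the sets and holds 54830 peaks, had a peak at 26.7% (26.2% to 27.2%) of heart-only and 8.39% (8.12% to 8.67%) of lung-only regions. The heart-only share was the higher one on 18 of 18 autosomes, ranging from 20.9% to 30.0% against 6.01% to 10.3%. No such gap appeared in spleen, with 21.1% against 22.9%, in kidney, with 34.6% against 37.2%, or in liver, with 30.5% against 35.2%, and in these lists the lung-only share was the higher one. Shared regions were called in muscle in 65.1% of cases and in the others in 78.3% to 87.6%. In none of the 4 lists were 38.7% of heart-only and 43.2% of lung-only regions, against 3.54% of shared regions. List length differs between tissues, so shares are to be read across sets within a tissue.

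**Figure D2:**
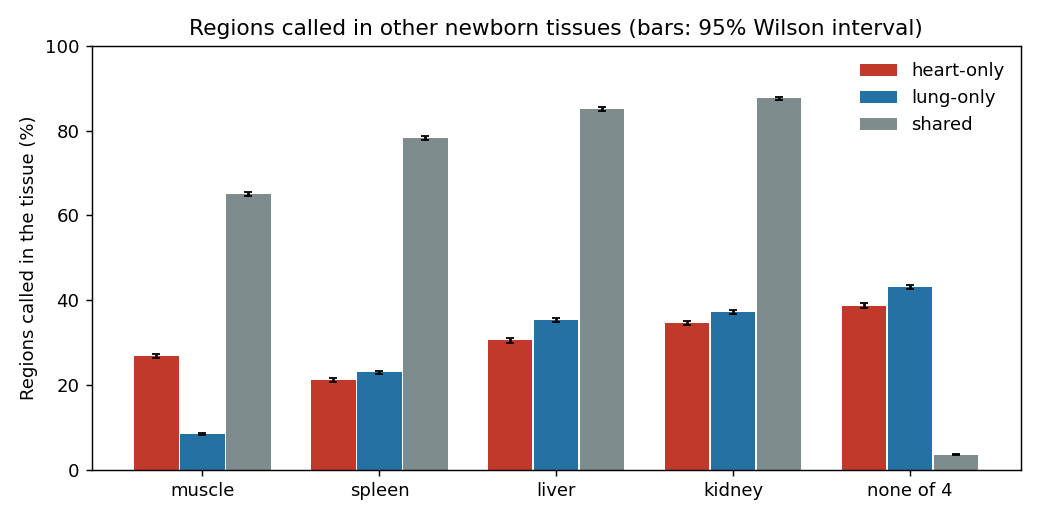
Share of heart-only, lung-only and shared regions (y axis, percent, with 95% Wilson intervals) that overlap a peak of the newborn muscle, spleen, liver or kidney list, or of none of the 4. Muscle is the tissue in which heart-only regions (26.7%) were called more often than lung-only regions (8.39%).

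Motif letters were counted in the 200 bp around the summit of each peak outside promoters, on both strands, for 16 consensus sequences. MEF2, the motif of factors that activate sarcomere genes, was matched in 3.29% (3.10% to 3.50%) of heart-only windows, 0.277% (0.228% to 0.337%) of lung-only windows and 1.16% of shared windows. MYOD (CAGCTG, an E-box of muscle factors) was matched in 20.5% of heart-only and 16.5% of lung-only windows but in 21.5% of shared windows. The letters AGATAAG of the GATA factors were matched in 5.62%, 4.02% and 3.40%, and HAND (CATCTG) in 18.4%, 15.5% and 16.3%. MEF2, MYOD and HAND were more frequent in heart-only than in lung-only windows on 18 of 18 autosomes and GATA on 17.

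Lung-only windows led for other motifs. NKX2 (CACTTNA), which cardiac NKX2-5 and pulmonary NKX2-1 can both bind, was matched in 16.5% (16.1% to 16.9%) of lung-only, 11.5% (11.2% to 11.9%) of heart-only and 9.50% of shared windows. FOX (TGTTTAC), read by forkhead factors, was matched in 6.43% of lung-only, 2.26% of heart-only and 3.01% of shared windows. TEAD (ACATTCC) was matched in 6.99%, 4.47% and 4.77% in the same order, and GRHL (AACCNGTT), read by the epithelial grainyhead-like factors, in 2.11%, 1.12% and 1.20%. None of the 18 autosomes had the higher heart-only share for NKX2, FOX, TEAD or GRHL. CTCF, the motif of an insulator protein, was matched in 5.42% of shared windows, above the 1.86% of lung-only and 1.16% of heart-only windows.

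ETS (CNGGAAGT), which endothelial factors read, was matched in 3.55% (3.35% to 3.77%) of heart-only, 4.52% (4.32% to 4.74%) of lung-only and 5.31% of shared windows, and the heart-only share was the higher one on 2 of 18 autosomes. AP1 (TGANTCA) had 9.93% (9.60% to 10.3%), 8.80% (8.51% to 9.09%) and 9.63%, with the heart-only share higher on 14 autosomes. Heart-only and lung-only intervals overlapped for the other 5 motifs, among them TBX (GGTGTGA), with 3.59%, 3.24% and 3.02%, and CEBP (TTGCNNCAA), with 1.55%, 1.81% and 1.33%. SRF, SOX (ACAATGG) and NFI were the rest of the 5. Base composition differed little between heart-only and lung-only windows, with mean GC contents of 51.0% and 50.4%, and was higher in shared windows, with 55.4%. Searching the letters in reversed order, a control with the same composition, left differences of −0.0293 percentage points for MEF2 and 0.0191 for FOX, against 3.02 and −4.17 for the motifs themselves, whereas NKX2 kept −1.22 of −4.96. A match is a run of letters and no measured binding.

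The heart-only set was not uniform. Windows also called in skeletal muscle held MEF2 in 5.39% and MYOD in 27.2% of cases, against 2.54% and 18.1% of heart-only windows not called there. GATA went the other way, with 2.94% of windows called in muscle and 6.57% of the others, and NKX2 had 9.99% and 12.1%. Among lung-only windows, those also called in spleen held ETS in 7.11% and FOX in 4.61% of cases, against 3.80% and 6.93% of the others. NKX2 had 11.7% and 17.9%. MYOD was higher with a spleen call (20.9% against 15.2%) and GATA lower (2.98% against 4.31%). Kidney calls went likewise, with 19.5% against 14.7% for MYOD and 2.63% against 4.80% for GATA. ETS (5.29% against 4.09%), FOX (5.46% against 6.96%) and NKX2 (12.1% against 18.96%) differed in the same directions for kidney as for spleen. The MYOD and GATA differences were thus not limited to muscle calls, whereas MEF2 was not higher with spleen or kidney calls.

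**Figure D3:**
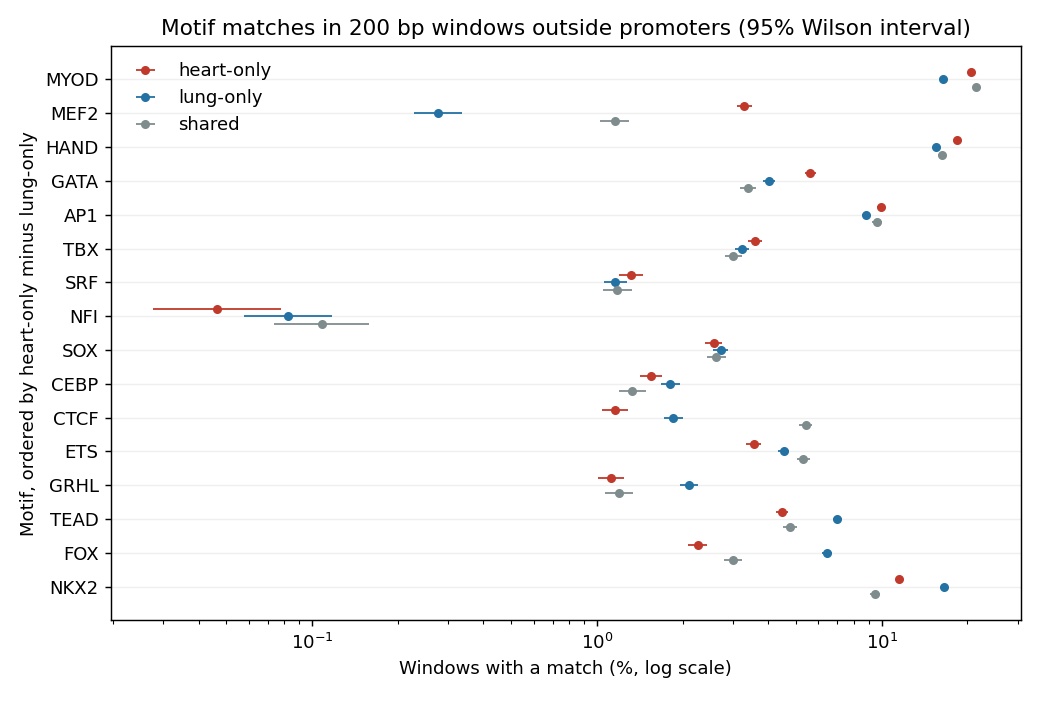
Share of 200 bp windows outside promoters with a match to each of 16 motifs (x axis, percent on a log scale, with 95% Wilson intervals), ordered from the largest heart-only excess at the top. MEF2 shows the widest relative gap, 3.29% of heart-only against 0.277% of lung-only windows.

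Among all 18725 PCGs, a promoter held a heart-only peak in 7.33% of genes, a lung-only peak in 12.4% and a shared region in 65.8%, and a gene could fall under more than 1 of these. Gene loci were taken from 2.2 kb upstream to 300 bp downstream of the gene, and heart-only peaks exceeded lung-only peaks by 2 or more in 8.78% of loci, with the reverse in 14.7%. These shares are the background for the gene lists below, for which no test was made. Promoters with a peak of 1 tissue and no peak of the other list were not counted over all PCGs. Their share can be at most 7.33% for heart and 12.4% for lung.

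Cardiac genes carried mostly heart-only peaks. Of 42 cardiac genes, 25 had a heart-only peak in a promoter, 3 had a lung-only peak and 24 had a shared region, and 13 had a heart-only peak with no peak of the lung list there. Their loci held 213 heart-only, 48 lung-only and 84 shared regions, and 22 loci had an excess of 2 or more heart-only peaks while 1 had the reverse. The median gene had 2 more heart-only than lung-only peaks, against a median of 0 over all PCGs. With an IDR of 0.05 or lower in both lists, 14 cardiac genes had a heart-only promoter peak, beside 11.7% of all PCGs, and with the limit set only on the peak itself 8 had one, beside 0.684%.

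Among contractile and calcium handling genes, 11 of 18 (61.1%) had a heart-only promoter peak and 0 had a lung-only one. The start of MYL7, which encodes the atrial myosin light chain, had a heart-only peak at chr18:51026155-51026850 with a −log10 p of 21.5 and 18.5 in heart replicates 1 and 2, higher than 93.4% of heart-only peaks by its smaller value. The peak at the start of MYL3, a ventricular light chain, had values of 38.2 and 28.4, and the peak at PLN, which encodes the calcium pump inhibitor phospholamban, had 19.6 and 37.0. NPPA, which encodes atrial natriuretic peptide, had a heart-only peak with 16.2 and 7.85, whereas its neighbour NPPB had a shared region at its start. Both values of MYL3 were above both of MYL7 and of NPPA, whereas those of PLN overlapped MYL3 and MYL7.

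TTN, which encodes the sarcomere spring titin, had 28 heart-only and 0 lung-only peaks along its body, and 20 of the 28 were also called in skeletal muscle. Its strongest peak lay at the gene start (chr15:84501082-84501728), with a −log10 p of 38.0 and 46.0 in heart replicates 1 and 2. RYR2, which encodes the calcium release channel of heart muscle, had 49 heart-only, 10 lung-only and 10 shared regions, and 1 of the 49 was called in skeletal muscle. ACTN2, which encodes the Z-disc protein alpha-actinin, had 11 heart-only peaks, of which 6 were called in muscle, and CASQ2, which encodes a calcium store protein, had 5, all of them called in muscle. MYL2 had no peak of either tissue in its locus and MYH7 had 1 lung-only peak, so members of the list differed. MYH6 could not be matched by symbol and is not analysed here.

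Among 17 cardiac regulators, 11 (64.7%) had a heart-only promoter peak and 2 a lung-only one. NKX2-5, a homeobox factor of the heart, had a single peak, heart-only and at its start (chr16:51085719-51086353), with a −log10 p of 30.9 and 37.9 in heart replicates 1 and 2. HAND2 had a heart-only peak upstream of its start with 20.8 and 23.5, HAND1 had 6.72 and 20.02, and IRX4, a ventricular regulator, had 11.7 and 10.005. GATA4 had 13 heart-only, 0 lung-only and 4 shared regions, and none of the 13 was called in skeletal muscle. MYOCD had 8 heart-only and 0 lung-only peaks, MEF2C had 10 and 2, and MEF2A had 5 and 0. GATA6 was balanced at 2 and 2, and ISL1, which acts in early heart formation, had a shared region only.

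Of the 7 conduction genes, 3 had a heart-only promoter peak and 1 a lung-only peak. KCNH2, which encodes a potassium channel, had 6 heart-only and 0 lung-only peaks, and HCN4, which encodes the pacemaker channel, had 3 and 1. KCNQ1 ran against the list, with 14 heart-only and 17 lung-only peaks. At the cardiac loci outside promoters, 1 of 102 heart-only windows at contractile genes, 0 of 42 at regulators and 2 of 33 at conduction genes held a MEF2 match, beside 3.29% of all heart-only windows.

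Heart-only peaks at cardiac loci were called in skeletal muscle in 39 of 117 cases (33.3%) at contractile genes, 11 of 58 (18.97%) at regulators and 8 of 38 (21.1%) at conduction genes, against 27.5% at the loci of all PCGs. The share at contractile genes rested largely on TTN, which gave 20 of the 39 from 28 peaks, whereas RYR2 gave 1 from 49. Of 6 genes listed for skeletal muscle itself, CKM, which encodes the creatine kinase of heart and skeletal muscle, had 3 heart-only promoter peaks, while the skeletal muscle regulators MYOD1, MYOG, MYF5 and PAX7 had 0 heart-only peaks in their loci. MYOD1, MYF5 and PAX7 had 1 lung-only peak each, and those of MYOD1 and MYF5 lay at promoters. Both promoter peaks were weak, with a −log10 p of 3.73 and 8.96 at MYOD1 and of 4.44 and 10.5 at MYF5 in lung replicates 1 and 2. Each had an IDR of 0.74 and was also called in muscle and kidney.

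Lung epithelial genes showed the mirror image. Of 40 genes, 24 had a lung-only promoter peak, 2 had a heart-only peak and 23 had a shared region, and 15 had a lung-only peak with no peak of the heart list there. Their loci held 41 heart-only, 186 lung-only and 68 shared regions, and 23 loci had an excess of 2 or more lung-only peaks while 1 had the reverse. With an IDR of 0.05 or lower in both lists 16 genes had a lung-only promoter peak, beside 13.7% of all PCGs, and with the limit set only on the peak itself 10 had one, beside 1.33%.

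NKX2-1, the homeobox gene that marks lung epithelium, had 2 peaks in its locus and both were lung-only. The peak at its start (chr7:63486825-63487425) had a −log10 p of 10.7 and 57.3 in lung replicates 1 and 2, and the peak over the gene body (chr7:63487690-63489000) had 4.51 and 50.3. Within 100 kb of the gene there were 16 lung-only, 2 heart-only and 2 shared regions. The strongest lung-only peaks of this stretch by the smaller value lay 13981 bp downstream of the start, with 19.3 and 43.7, and 86279 bp upstream, with 16.7 and 49.1. The heart-only peaks of the stretch lay 70724 bp and 37159 bp upstream, and the former is at a promoter of the neighbouring gene NKX2-8.

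Among 15 epithelial regulators and junction genes, 8 (53.3%) had a lung-only promoter peak and 1 a heart-only one. EPCAM, which encodes an epithelial adhesion molecule, had a lung-only peak at its start with a −log10 p of 73.4 and 164 in lung replicates 1 and 2. CDH1, which encodes E-cadherin, had 13 lung-only and 0 heart-only peaks, and its start peak had 44.0 and 103. GRHL2, a grainyhead-like regulator of epithelium, had 12 and 0, with 33.8 and 85.8 at its start. FOXP2 had 35 lung-only and 8 heart-only peaks, whereas FOXP1 had 27 and 22. FOXA1, SOX2, SOX9, ELF3, KLF5, ID2 and ETV5 had shared regions at their promoters and no peak of a single tissue there.

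Among 17 alveolar genes, 12 (70.6%) had a lung-only promoter peak and 1 a heart-only one. The surfactant genes SFTPB, SFTPC, SFTPD and SFTPA1 each had a lung-only peak at the start. SFTPB, needed for surfactant to spread, had a −log10 p of 24.7 and 61.3 in lung replicates 1 and 2, SFTPC had 9.99 and 33.0, SFTPD had 8.48 and 36.1, and SFTPA1 had 4.65 and 27.2. The SFTPA1 locus also held 1 heart-only peak, in an exon, with 8.89 and 5.33 in heart replicates 1 and 2. LAMP3, a protein of the surfactant storing cell, had 8 lung-only and 0 heart-only peaks. Genes of the flat type I cell behaved alike at AGER, with start values of 11.9 and 51.1, at AQP5, a water channel with 3 lung-only and 0 heart-only peaks, and at RTKN2, with 19 lung-only and 1 heart-only peaks. EMP2 ran the other way, with 4 heart-only and 1 lung-only peaks, and PDPN, which other cells also use, had 1 and 2.

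Among 8 airway genes, 4 had a lung-only promoter peak and 0 had a heart-only one. TP63, a regulator of basal cells, had 10 lung-only peaks and 0 heart-only peaks, and the strongest had a −log10 p of 31.9 and 87.1 in lung replicates 1 and 2. SCGB3A2, a secretory protein of small airways, had a lung-only peak at its start with 9.39 and 53.0. SCGB1A1, which encodes the club cell secretory protein, and KRT5, a basal cell keratin, had no peak of either tissue. In these 3 lists together, peaks called in lung only were seldom seen in muscle, in 5 of 105 at regulators, 2 of 65 at alveolar genes and 2 of 16 at airway genes, against 8.84% at the loci of all PCGs. Kidney, also rich in epithelium, had 31, 13 and 6 of them, against 37.9%.

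**Figure D4:**
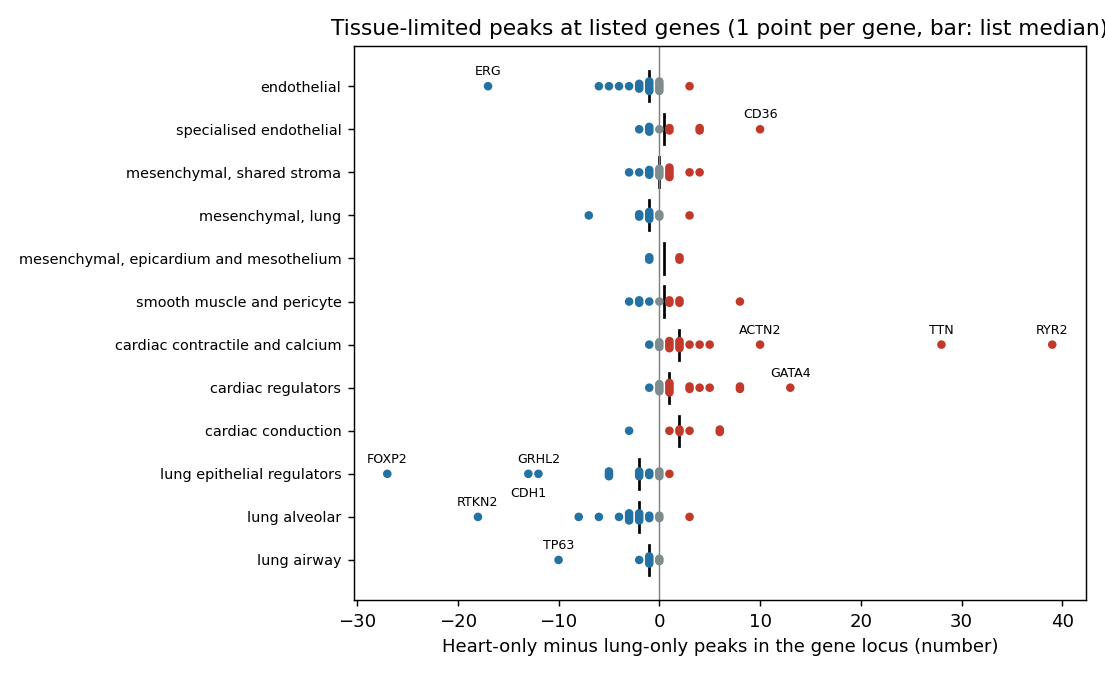
Heart-only minus lung-only peaks in the locus of each listed gene (x axis, number of peaks), with 1 point per gene, red for a heart-only excess, blue for a lung-only excess and grey for 0, and a black bar for the median of each list. Cardiac lists lie to the right, up to 39 at RYR2, and lung epithelial lists lie to the left, down to −27 at FOXP2. The mesenchymal lists have medians from −1, for lung mesenchyme, to 0.5.

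Most endothelial genes had a promoter region shared by both organs, at a rate close to that of all PCGs. Of 29 endothelial genes, 21 had a shared region in a promoter, 12 had a lung-only peak and 6 a heart-only peak. In the general list of 19 genes the shares were 78.9%, 47.4% and 21.1%, and in the specialised list 6, 3 and 2 of 10 genes had them, beside the 65.8%, 12.4% and 7.33% of all PCGs. No gene had a heart-only peak at a promoter without a peak of the lung list, and 3 had a lung-only peak without one of the heart list. Their loci held 64 heart-only, 92 lung-only and 82 shared regions. With an IDR of 0.05 or lower in both lists the counts of genes were 1 with a heart-only and 7 with a lung-only promoter peak, beside 11.7% and 13.7% of all PCGs. With the limit set only on the peak itself they were 0 and 1, beside 0.684% and 1.33%.

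The general endothelial list leaned to lung in its loci, with 33 heart-only and 76 lung-only peaks. Heart-only peaks were thus 30.3% of the peaks of a single tissue, against 45.2% over all PCGs, and ERG had 17 of the lung-only and 0 of the heart-only peaks. ERG is an ETS factor that keeps endothelial identity, and its lung-only peaks ranged from 4.005 to 11.8 in the −log10 p of lung replicate 1 and from 3.54 to 50.6 in replicate 2. VWF, a clotting protein made by endothelium, had 8 lung-only and 2 heart-only peaks, and ENG, a TGF-beta coreceptor, had 5 and 0. FLT1 and FLI1 had 8 against 6 and 10 against 6. TEK, the angiopoietin receptor, was the only gene of this list with an excess of 2 or more heart-only peaks, with 5 against 2.

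KDR, which encodes the main VEGF receptor of endothelium, had 2 heart-only, 2 lung-only and 4 shared regions in its locus. The region at its start (chr8:41855505-41856780) was shared, with a −log10 p of 15.3 and 11.9 in heart replicates 1 and 2 and of 4.37 and 46.8 in lung replicates 1 and 2. The other shared regions lay 8490 bp, 16954 bp and 46246 bp downstream of the start. Among shared regions the ranks of both tissues overlapped at the start, at 8490 bp and at 16954 bp, and at 46246 bp both lung libraries ranked it higher, at percentiles of 62.6 and 28.6, than the heart libraries, at 17.4 and 10.5. The heart-only peaks were intronic and weak, with 7.27 and 4.87 at 34149 bp and 6.09 and 5.17 at 32467 bp, and neither met the reproducibility limit.

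The lung-only peaks of the KDR locus differed in strength, and neither met the reproducibility limit. The upstream one (chr8:41858242-41858493) had a −log10 p of 3.79 and 6.24 in lung replicates 1 and 2, and the exonic one 36175 bp downstream of the start had 7.85 and 11.9. With 100 kb on either side added there were 3 heart-only, 10 lung-only and 6 shared regions. The strongest peak limited to lung lay 18779 bp upstream of the KDR start (chr8:41874817-41875566), with 23.6 and 68.4, and was also called in spleen but not in kidney, liver or muscle. None of the heart-only peaks of the stretch lay upstream of the gene.

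The specialised endothelial list, which holds genes of endocardium, capillaries and lymphatics, went the other way, with 31 heart-only and 16 lung-only peaks. CD36, a fatty acid transporter of capillaries and muscle, contributed 13 heart-only and 3 lung-only peaks, and 5 of the 13 were called in muscle. NPR3, which marks endocardium, had 5 and 1, and PROX1, which sets lymphatic identity and is also active in heart muscle, had 5 and 1. EDNRB, found in lung capillary endothelium, had 0 heart-only and 2 lung-only peaks. FABP4 and SOX18 had no peak of either tissue, and EGFL7, APLN and APLNR are not analysed here.

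Mesenchymal genes were balanced in their total counts, which join lists that leaned in different directions, given below. Of 40 genes, 29 had a shared region in a promoter, 9 a heart-only and 7 a lung-only peak. Over all PCGs these shares were 65.8%, 7.33% and 12.4%. The loci held 50 heart-only and 50 lung-only peaks beside 75 shared regions, whereas heart-only peaks were 45.2% of the peaks of a single tissue over all PCGs. An excess of 2 or more was found in 8 genes in each direction, and the median was 0. Over all PCGs such an excess was found in 8.78% of loci for heart and 14.7% for lung. In the list of stroma common to organs, PDGFRA, TWIST1 and GLI1 had no peaks of a single tissue, FBN1, which encodes the microfibril protein fibrillin, had 9 heart-only and 5 lung-only peaks, and PRRX1 had 3 and 0. NR2F2, a nuclear receptor of veins and stroma, had 0 and 3.

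The lung mesenchyme list held 5 heart-only peaks, all of them at TBX5, and 17 lung-only peaks. WNT2, a signal from lung mesenchyme to epithelium, had 7 lung-only peaks and 0 heart-only peaks, the strongest with a −log10 p of 10.9 and 25.7 in lung replicates 1 and 2. FOXF1, a forkhead regulator of this tissue, had 2 lung-only peaks and a shared region at its start. TBX4 and FGF10 had 1 lung-only peak each, and HHIP and TBX2 had only shared regions.

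TBX5, a T-box factor of heart and lung, had 5 heart-only, 2 lung-only and 3 shared regions in its locus, on chromosome 14. The strongest heart-only peak lay in an intron 27826 bp downstream of the start, with a −log10 p of 12.7 and 23.9 in heart replicates 1 and 2, followed by one at 34105 bp with 13.3 and 11.02 and one at 3751 bp, in an alternative promoter, with 10.2 and 16.1. The lung-only peaks lay 1113 bp upstream of the start, with 4.76 and 16.3 in lung replicates 1 and 2, and 14606 bp downstream, with 4.96 and 13.4. Both tissues had regions 1436 bp and 1889 bp downstream of the start and in an exon at 51933 bp, and at the last of these both heart libraries ranked it higher. With 100 kb on either side the counts were 14 heart-only, 11 lung-only and 5 shared.

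Outside the TBX5 gene, the strongest heart-only peak lay 39948 bp upstream, with a −log10 p of 17.3 and 19.9 in heart replicates 1 and 2, and was called in none of the other 4 tissues. The strongest lung-only peak lay 131228 bp downstream of the TBX5 start (chr14:37903035-37903989), with 23.1 and 128 in lung replicates 1 and 2, and was likewise called in none of the others. A lung-only peak lay close to that heart-only peak, 38739 bp upstream, with 4.49 and 4.25 in lung replicates 1 and 2.

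**Figure D5:**
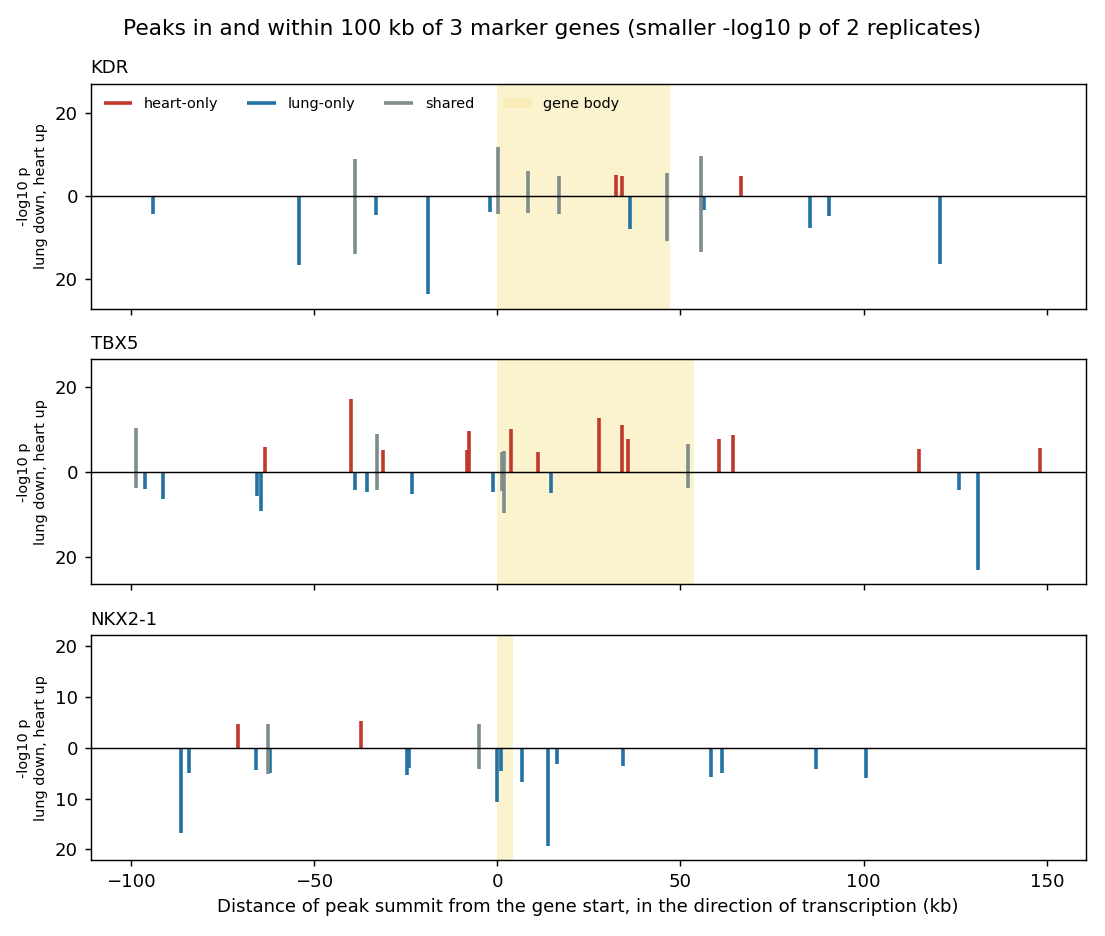
Peaks in and within 100 kb of KDR, TBX5 and NKX2-1, by distance of the summit from the gene start in kb (x axis) and the smaller −log10 p of the 2 replicates (y axis, heart upward and lung downward, each on the scale of its own list), with the gene body shaded. NKX2-1 is flanked by 16 lung-only and 2 heart-only peaks, KDR by 10 and 3, and TBX5 by 11 and 14.

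The epicardium and mesothelium list held 4 heart-only and 2 lung-only peaks. TBX18 and WT1, which mark the epicardium, had 2 heart-only peaks each and 0 lung-only peaks, and both had shared regions at their promoters. The TBX18 peaks were weak, with 4.68 and 5.12 for one and 4.34 and 3.80 for the other in heart replicates 1 and 2. ALDH1A2 and UPK3B, of the mesothelium of both organs, had 1 lung-only peak each. In the smooth muscle and pericyte list, with 20 heart-only and 14 lung-only peaks, MYOCD, which is also in the cardiac list, gave 8 of the heart-only peaks, and 3 genes had an excess of 2 or more in each direction. CNN1 had 2 heart-only peaks, whereas ACTA2 had 1 heart-only and 3 lung-only peaks, MYH11 had 1 and 4, and RGS5, of pericytes, had 0 and 2. ABCC9 had 5 and 3.

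Markers of blood and immune cells leaned to lung in their total counts, whereas the median gene had an excess of 0. Of 12 such genes, 0 had a heart-only and 4 a lung-only promoter peak, 5 had a shared region, and the loci held 5 heart-only and 26 lung-only peaks, 16 of the latter at RUNX1. CD3E, CD68 and LYZ had no peak of either tissue, CSF1R had 1 heart-only and 0 lung-only peaks, and SPI1 had 1 of each. PTPRC had 3 lung-only peaks that were all called in spleen as well, and 13 of the 26 lung-only peaks were called in spleen. As many were called in kidney (13) and in liver (13), while over the loci of all PCGs the shares were 23.7% for spleen, 37.9% for kidney and 36.4% for liver. The part of immune cells in the lung-only set was not tested. Of 3 erythroid genes 1 had a lung-only promoter peak, and the 3 genes of glia and neurons had no promoter peak in either list.

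Shared regions can still differ in strength, which was described by the rank of −log10 p within each library. Both heart libraries ranked a region above both lung libraries in 20.2% of the 36748 shared regions, and the reverse held in 22.4%. With 2 libraries against 2 an exact permutation test of a single region cannot go below p = 0.33, even with the libraries taken as independent, so no region was tested. Outside promoters the shares were 22.1% and 22.2%, and at promoters 16.5% and 22.8%. At contractile genes 11 of 23 shared regions ranked higher in heart and 5 in lung, and at cardiac regulators 16 of 42 and 5. TNNI3, which encodes cardiac troponin I, had a shared region at its start with percentiles of 89.7 and 91.9 in the heart libraries and 85.3 and 87.9 in the lung libraries, so both tissues ranked it high.

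Among shared regions of the general endothelial list, 6 of 68 ranked higher in heart and 19 in lung. The start regions of CDH5 and PECAM1, junction proteins of endothelium, were ranked higher in both lung libraries, at percentiles of 63.0 and 56.0 for CDH5 and 69.0 and 55.7 for PECAM1, against 21.3 and 22.5 and against 54.5 and 31.1 in the heart libraries. TEK went the other way, with 49.8 and 66.1 in heart and 10.1 and 26.2 in lung at its start. In lung epithelial regulators 7 of 40 ranked higher in heart and 12 in lung, and in smooth muscle and pericyte genes 11 of 28 and 4.

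The strongest heart-only promoter peaks with an IDR of 0.05 or lower that are reported here were, in order of the smaller −log10 p, those of TRIM55, FAM213A, ASB15, FSD2, FRMD5, FHL2, MRVI1, EHBP1 and TRDN. TRIM55, a sarcomere-associated ubiquitin ligase, had 69.4 and 67.0 in heart replicates 1 and 2, and TRDN, which encodes triadin of the calcium release complex, had 38.2 and 44.0. The LIM protein gene FHL2 had 43.3 and 62.0. The peaks of TRIM55, ASB15, FSD2, FRMD5, FHL2 and TRDN were also called in muscle.

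The strongest lung-only promoter peaks reported here belonged to EPCAM, RHOBTB1, TMEM125, LOC100627175, ARHGEF16, CDH1, MPV17L, LOC100156470 and CNKSR1. RHOBTB1 had a −log10 p of 59.0 and 167 in lung replicates 1 and 2. All of those named were also called in kidney, whereas MPV17L was the single one called in muscle.

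The loci with the largest excess of heart-only peaks were CDH13 with 45 heart-only and 3 lung-only peaks, MTUS2 with 43 and 2, RYR2 with 49 and 10, CACNB2 with 42 and 7, FHOD3 with 38 and 5, AKAP6 with 31 and 2, TTN with 28 and 0, and SLC8A1 with 34 and 9. CDH2, DST and RGS6 followed with an excess of 22 each. RYR2, CACNB2, SLC8A1 and AKAP6 serve calcium handling and FHOD3 sarcomere assembly. The share called in muscle varied, from 20 of 28 at TTN and 13 of 45 at CDH13 to 2 of 34 at SLC8A1 and 0 of 42 at CACNB2.

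The loci with the largest excess of lung-only peaks were KAZN with 4 heart-only and 37 lung-only peaks, C8H4orf22 with 3 and 35, CADM1 with 0 and 32, NCKAP5 with 3 and 31, FOXP2 with 8 and 35, RBMS3 with 7 and 34, APBB2 with 5 and 31, FMNL2 with 1 and 27, MECOM with 11 and 37, and TOX with 0 and 26. CADM1 is an adhesion molecule of epithelium, and MECOM a transcription factor found in endothelium and airway. These ranks were not adjusted for gene length, and the loci named were long, from 232 to 1022 kb on the heart side and from 305 to 1490 kb on the lung side.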

How the data were processed

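ATAC-seq peaks of 2 newborn hearts and 2 newborn lungs were used, with the muscle, spleen, kidney and liver lists of the same age for comparison. Per the study's methods, the authors aligned paired-end reads to Sscrofa11.1 with Bowtie2, filtered them with SAMtools 1.3.1, called peaks per library with MACS2 and matched the replicates of a tissue by IDR into 1 list. The deposited values were the −log10 p of each replicate, and a score and a −log10 value that both encode IDR. For the peak caller, the study's methods name a paired-end input format together with a shift and an extension. Whether mapped fragments or insertion sites lie under a summit depends on which of these took effect. That was not checked and could move summits and motif windows. Deposited lists were not filtered on IDR, which sets how many weak peaks each set holds. The heart list lost 2529 and the lung list 3249 peaks that lay outside chromosomes 1 to 18.

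Genes and start sites came from the RefSeq annotation of the same assembly, and a peak took the first of promoter, exon, intron, 300 bp downstream and intergenic that it overlapped by 1 bp. Of 182 listed genes 173 were found by symbol. Overlaps were computed in Python 3.11.15 with pandas 2.3.3, sequences were read with pysam 0.24.0, and the steps were checked against bedtools 2.31.1 and planted motifs. Members, gene lists and motifs were chosen with earlier results of these data known. Named genes were listed genes, the 10 strongest promoter peaks and the 10 loci with the largest excess in each direction (with the next locus on the heart side, which tied), and KDR, TBX5 and NKX2-1 peak by peak. Some genes that this rule names are not reported here. Alternatives were IDR limits, equal list lengths, a larger overlap, a shorter promoter, a shorter motif window, reversed motifs and the intervals of single replicates. One alternative, the intervals of lung replicate 2 in place of the merged lung intervals, was chosen after seeing the data.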

Additional observations from a re-analysis of the deposited data

How the results depend on the processing

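Of 123 values recomputed for 17 results, 69 stayed within the limits set for each, 52 moved and 2 turned. The limits were 1.5 times for counts and the counting interval for shares. Both values that turned, of MEF2 and FOX, came from reversed letters, a control rather than a choice of processing. An IDR of 0.05 or lower in both lists gave 7304 heart-only, 9305 lung-only and 6616 shared heart peaks, promoter shares of 27.3% and 26.2%, 2184 genes with a heart-only promoter peak, 14 cardiac genes with one, and 1 endothelial gene with a heart-only and 7 with a lung-only one. The difference between heart-only and lung-only peaks was then 20.9 points for muscle calls and 4.85, −8.05 and −5.204 points for MEF2, NKX2 and FOX, against 18.3, 3.02, −4.96 and −4.17 as reported. With the limit on the list itself there were 2893 heart-only, 3985 lung-only and 11027 shared heart peaks, promoter shares of 4.46% and 6.35%, 128 and 249 genes with a heart-only and a lung-only promoter peak, 8 cardiac, 10 lung epithelial, and 0 (heart-only) and 1 (lung-only) endothelial genes, and differences of 37.0 points for muscle and 6.75, −12.4 and −7.58 for the motifs. Equal list lengths gave a heart-only promoter share of 6.32%, a muscle difference of 19.8 points and −5.68 for NKX2, and the larger required overlap, 0.5 of the shorter peak, gave a heart-only promoter share of 5.203%. The shorter promoter gave shares of 2.95% and 4.57% and 858 genes with a heart-only promoter peak. A window of 100 bp gave 1.84, −3.15 and −2.57 points for MEF2, NKX2 and FOX, and reversed letters gave −0.0293, −1.22 and 0.0191. Shared regions ranked higher in heart and in lung made up 22.2% and 23.4% where both peaks met the IDR limit of 0.05, and 21.3% and 23.9% outside promoters with ranks taken anew.

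The intervals and summits of replicate 2, of replicate 1, or of lung replicate 2 alone were also put in place of the merged ones. These gave heart-only promoter shares from 4.87% to 5.11% and muscle differences from 17.7 to 18.3 points. Motif differences ranged from 2.67 to 3.03 points for MEF2, from −6.03 to −3.79 for NKX2 and from −4.50 to −3.49 for FOX. Every peak of the merged lists was kept, so no replicate was left out of the peak calls and the sets could change little. No paired analysis was possible because the comparisons come from no test and the labels do not say which animal a replicate number stands for. The cause of these changes was not tested, other than that stricter limits leave fewer peaks by construction. The lists hold no depth, so a region missing from one tissue may have fallen under its calling limit. The study reports more filtered reads for either lung library than for either heart library, and the effect on the sets was not tested.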
